A study of Mus musculus with 4 samples.

Results

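The genes described here are 9 members of the signalling system built around the epidermal growth factor (EGF) receptor in mice. They are the receptor genes Egfr, Erbb2 and Erbb4 and the ligand genes Areg, Ereg, Hbegf, Btc, Tgfa and Nrg1. They were chosen by name and matched by symbol among the 54532 genes of the count table, and all 9 were found there. Polyadenylated RNA was sequenced from microdissected cranial neural tubes of mouse embryos at embryonic day 10.5. The 2 Control embryos lacked the E2f1 Tg(Wnt1-cre)2Sor transgene, and the labels do not say whether they carried floxed alleles. The 2 embryos of the double conditional knockout, DCKO, were Lats1 flox/flox and Lats2 flox/flox and carried that transgene. Its Cre recombinase is driven by Wnt1 regulatory sequences, which act in the dorsal neural tube and neural crest, so only part of the dissected tissue could lose LATS1 and LATS2, the kinases that hold the coactivators YAP and TAZ in check. The comparison is DCKO against Control.

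ErbB receptors are tyrosine kinases of the cell surface that signal as pairs. EGF, amphiregulin, TGF-alpha and epigen bind EGFR. Betacellulin, HB-EGF and epiregulin bind both EGFR and ERBB4, neuregulins 1 and 2 bind ERBB3 and ERBB4, and neuregulins 3 and 4 bind ERBB4. ERBB2 has no known ligand of its own and serves as the partner of the others, while ERBB3 has little kinase activity and depends on its partner. Most ligands are made as membrane proteins and are released by sheddases of the ADAM family. In the embryo, EGFR is best known from epithelia, ERBB4 with neuregulin 1 from the hindbrain and heart, and ERBB3 from neural crest and Schwann cell precursors.

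Promoter windows from RefSeq, on build GRCm38.p6, were at hand for 6 of the 9 genes (Egfr, Erbb2, Erbb4, Areg, Btc and Tgfa). The 250 bases before the RefSeq start are shown for the 3 receptor genes, which include both genes called in the comparison, and for Areg, a ligand gene close to silent in all libraries. They lie at chr11:16751953-16752202 (plus strand, Egfr), chr1:69108060-69108309 (minus strand, Erbb4), chr11:98412234-98412483 (plus strand, Erbb2) and chr5:91139349-91139598 (plus strand, Areg). Each is written 5′ to 3′ in the direction of its gene, and capitals mark matches to the letters searched on both strands, which were GGAATG for TEAD factors, TGANTCA for AP-1, GGGCGG for SP1 and TATAAA for the TATA box.
Egfr: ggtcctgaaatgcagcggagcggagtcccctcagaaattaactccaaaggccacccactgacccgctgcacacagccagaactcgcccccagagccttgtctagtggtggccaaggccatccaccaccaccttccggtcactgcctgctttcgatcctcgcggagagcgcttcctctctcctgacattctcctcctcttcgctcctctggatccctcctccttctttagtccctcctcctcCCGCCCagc
Erbb4: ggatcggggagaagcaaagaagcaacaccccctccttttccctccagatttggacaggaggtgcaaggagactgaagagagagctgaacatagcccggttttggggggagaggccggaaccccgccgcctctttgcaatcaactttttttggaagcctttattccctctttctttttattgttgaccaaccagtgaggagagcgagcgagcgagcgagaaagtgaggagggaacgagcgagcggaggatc
Erbb2: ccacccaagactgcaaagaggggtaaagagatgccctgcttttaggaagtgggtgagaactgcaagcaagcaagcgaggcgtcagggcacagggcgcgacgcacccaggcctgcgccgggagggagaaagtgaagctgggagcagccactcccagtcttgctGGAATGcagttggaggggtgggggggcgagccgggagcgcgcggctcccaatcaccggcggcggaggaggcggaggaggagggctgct
Areg: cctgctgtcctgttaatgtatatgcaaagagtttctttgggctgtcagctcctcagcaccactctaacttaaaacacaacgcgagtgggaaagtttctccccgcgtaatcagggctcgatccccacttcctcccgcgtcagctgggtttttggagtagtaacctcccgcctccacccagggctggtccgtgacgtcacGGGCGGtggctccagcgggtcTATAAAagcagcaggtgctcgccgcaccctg
The TEAD letters occurred once among these 4 windows, in Erbb2 at position -88 from the start, and the AP-1 letters in none of the 6 windows at hand. Of all 32851 windows of the same length, 12.6% held the TEAD letters and 6.75% the AP-1 letters. The SP1 letters, which 32.7% of windows held, were found at position -9 in Egfr on the opposite strand and at position -52 in Areg. A TATA box, with letters found in 12.4% of windows, began at position -31 in Areg and was seen in none of the 3 receptor windows. GC content was 60.8% for Egfr, 54.0% for Erbb4, 66.0% for Erbb2 and 57.2% for Areg, against a median of 52.4% over all windows. A match of letters is a description and not evidence of binding.

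Total counts per library ranged from 41798361 to 55137810. Values are given below as CPM, counts scaled to a common depth after normalization of the libraries by trimmed mean of M values (TMM). Among 19207 genes with enough counts to test, 1716 (8.93%) were higher and 1558 (8.11%) lower in DCKO at an adjusted p under 0.05 in edgeR's quasi-likelihood test. Lats1 stood at 44.2 and 65.6 CPM in the Control libraries against 30.0 and 29.7 in the DCKO libraries (adjusted p 0.0538 in edgeR and 0.00643 in DESeq2, and a false discovery rate of 0.0207 in the authors' deposited table). For Lats2 the values were 26.7 and 13.3 against 21.2 and 35.3 CPM, with overlapping groups. The deleted exons are not given in the sources used here, so gene totals check the genotype only in part. Of their effectors, Yap1 had a log2 fold change of -0.24 (0.02 without DCKO 1) and Wwtr1, which encodes TAZ, of 0.25 (-0.10 with library totals), with adjusted p-values of 0.520 and 0.320 in edgeR. Counts of Xist, the RNA that silences an X chromosome, were 10837 and 7786 for Control but 8 and 22 for DCKO, so embryo sex, the transgene and the loss of LATS1 and LATS2 cannot be told apart. Genes at the ribosomal RNA cluster of chromosome 17 took 12.4% to 13.2% of Control counts and 24.7% to 30.3% of DCKO counts. With library totals in place of TMM, the median log2 fold change of all genes moved from 0.03 to -0.32.

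Egfr and Erbb4 were higher in DCKO, and no member was called lower (0 in edgeR, 0 in DESeq2 and 0 at an unadjusted p under 0.05). Egfr rose 8.71-fold and Erbb4 2.49-fold. Hbegf and Nrg1 had larger fitted differences than Erbb4 but missed the threshold, and their 2 DCKO libraries differed widely from each other. Areg, Ereg and Btc were at or close to 0 counts in all libraries. Of the 9 genes, 6 passed the filter on low counts, with at least 75 counts in each Control library, and 2 of these 6 were called higher, while 8.93% of all tested genes were called higher. In CPM, both DCKO libraries lay above both Control libraries for all 6, which was so for 33.6% of all tested genes. In the authors' TPM, which is scaled by transcript length and depth, the groups overlapped for Erbb2 and Tgfa. For both genes DCKO 1 was then slightly below Control 1. Egfr, Erbb4, Hbegf and Nrg1 kept the separation in TPM. The median log2 fold change of the 6 was 1.53, against 0.03 for all genes. The median of the 6 was 1.63 and 1.40 when Control 1 and Control 2 were left out in turn. It was 1.86 when DCKO 1 was left out and 1.04 when DCKO 2 was. In these fits the median of all genes lay between -0.02 and 0.05. DESeq2 called 5 of the 6 higher, with 13.5% of all tested genes higher by that tool. The authors' deposited table lists 5 of the 9 genes, and 4 of these have a false discovery rate under 0.05 and a positive fold change, against 15.6% of the genes in it.

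**Figure D1:**
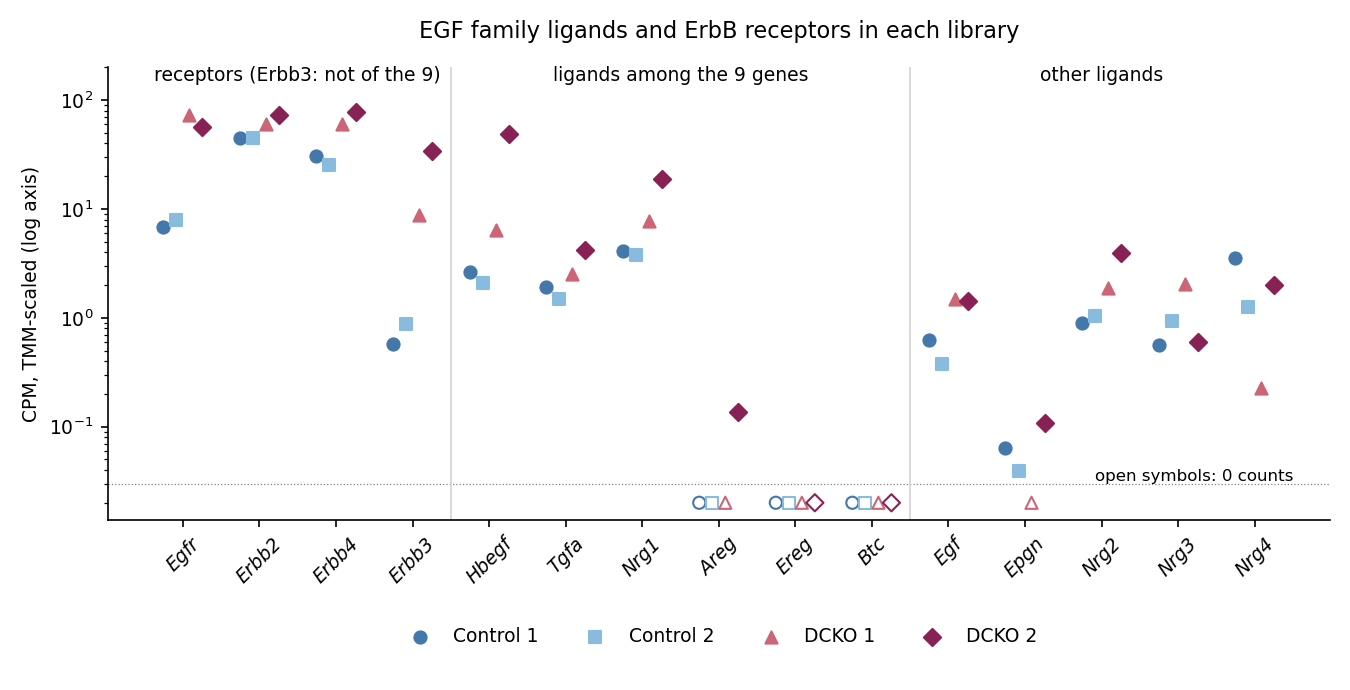
CPM (TMM-scaled, log axis) of each gene in each of the 4 libraries, 1 symbol per library, with open symbols for 0 counts. Egfr and Erbb4 are higher in both DCKO libraries at similar levels, Hbegf is far higher in DCKO 2 than in DCKO 1, and Ereg and Btc have 0 counts throughout.

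Among the receptors, Egfr (ENSMUSG00000020122, chromosome 11, 16752203 to 16918158, plus strand, GRCm38) encodes the founding receptor of the family. Control 1 and Control 2 held 6.83 and 7.98 CPM of it, against 72.4 and 56.6 CPM for DCKO 1 and DCKO 2. Both DCKO libraries were far above both Control libraries, and the libraries within each group were close to each other. The means were 7.41 ± 0.812 CPM in Control and 64.5 ± 11.2 CPM in DCKO (SD, n = 2 each), which gave a log2 fold change of 3.12 with an SE of 0.21 (adjusted p 0.00602 in edgeR). Egfr passed the threshold with any single library left out, at log2 fold changes from 2.93 to 3.29. With library totals in edgeR it was 2.77, and in limma it was 1.96 on log2(TPM + 1) and 2.43 on log2(TPM + 0.1). The added constant shrinks changes of low genes, and TPM was not scaled by TMM. The part of each in these smaller values was not tested. In the authors' deposited table its log2 fold change is 3.18, with a false discovery rate of 1.38e-22. The antisense gene Egfros overlaps it, and whether strand was used in counting is not given in the sources used here.

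Erbb4 (ENSMUSG00000062209, chromosome 1, 68032186 to 69108059, minus strand) encodes the neuregulin receptor that is itself an active kinase. Its Control values were 30.4 and 25.3 CPM, and its DCKO values were 60.4 and 78.5 CPM. The groups did not overlap, and the gap between them was wider than the spread within either. The means were 27.8 ± 3.66 and 69.4 ± 12.8 CPM (SD, n = 2), which gave a log2 fold change of 1.32 with an SE of 0.21 (adjusted p 0.0180 in edgeR). The call was lost without Control 1 (1.45, adjusted p 0.0851) and without Control 2 (1.16, adjusted p 0.130), fits in which the lone Control library is assumed to vary as the DCKO pair does. In limma on log2(TPM + pseudocount) Erbb4 did not pass either, with values from 0.90 to 1.03 and adjusted p-values from 0.0858 to 0.230. A small RNA gene, a pseudogene and predicted genes lie within its span on the same strand, so part of their reads may be counted with it.

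Erbb2 (ENSMUSG00000062312, chromosome 11, 98412470 to 98437716, plus strand) encodes the partner receptor without a ligand. Its Control values were 44.8 and 44.9 CPM, against 60.8 and 72.8 CPM in the DCKO libraries. The Control libraries were nearly equal, and both DCKO libraries were above them. At a log2 fold change of 0.58 with an SE of 0.17, Erbb2 did not pass in edgeR (adjusted p 0.0692). It passed in DESeq2 (0.57, adjusted p 0.0285) and without DCKO 1 (0.69, adjusted p 0.0358), and with library totals it was 0.23. Mien1, a protein-coding gene on the opposite strand, overlaps it, so its count is uncertain to that extent.

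Erbb3 (ENSMUSG00000018166, chromosome 10, 128567523 to 128589652, minus strand) is the fourth ErbB gene and not among the 9. It rose from 0.575 and 0.870 CPM in Control to 8.80 and 33.8 CPM in DCKO, the higher value being in DCKO 2. The difference was 4.88 on the log2 scale with an SE of 0.75 (adjusted p 0.0175 in edgeR), and without DCKO 2 it was 3.61 and without DCKO 1 5.55, both past the threshold. It missed the threshold without Control 1 (adjusted p 0.0823) or Control 2 (adjusted p 0.0773).

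Levels of different genes were compared per length, in the authors' TPM, an abundance scaled by transcript length and depth. In Control, Erbb2 was the most abundant receptor at 15.5 ± 2.18 TPM, followed by Erbb4 at 4.24 ± 0.724, Egfr at 1.65 ± 0.0105 and Erbb3 at 0.198 ± 0.0283 (SD, n = 2), with no overlap between neighbours in this order. In DCKO, Erbb2 was at 20.2 ± 4.58 TPM, Egfr at 9.34 ± 0.760, Erbb4 at 8.97 ± 3.10 and Erbb3 at 5.33 ± 4.81. The DCKO values of Erbb4 (6.78 and 11.2) overlapped those of Egfr and of Erbb3. Egfr (9.88 and 8.81) did not overlap Erbb3 (1.92 and 8.73), though the 2 were close in DCKO 2. Egfr made up 7.03% and 8.42% of the summed receptor TPM in Control and 27.8% and 16.9% in DCKO. The share of Erbb2 went from 72.1% and 71.3% to 47.6% and 44.9%, while Erbb4 kept between 19.1% and 21.4% in all 4 libraries. Summed receptor TPM was 23.6 and 19.5 in Control and 35.5 and 52.1 in DCKO.

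**Figure D2:**
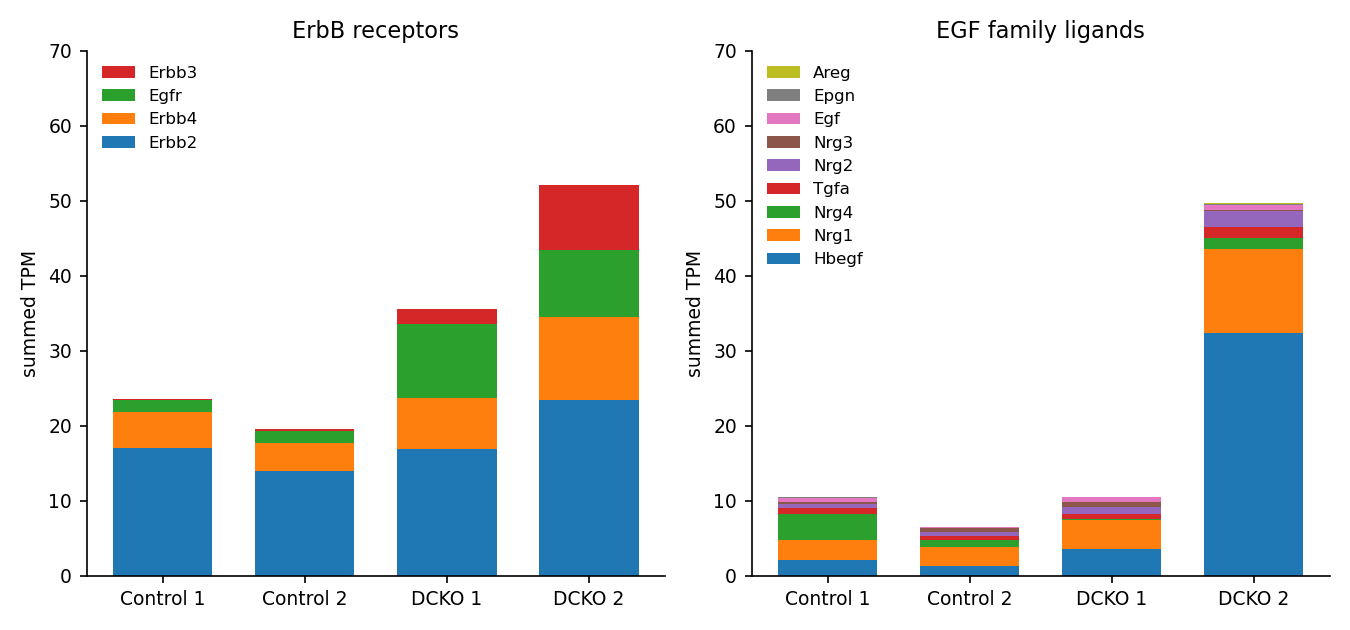
TPM of the 4 ErbB receptor genes (left) and of the EGF family ligand genes (right) in each library, stacked, on a linear axis. The receptor sum is 23.6 and 19.5 in Control and 35.5 and 52.1 in DCKO, and the ligand sum is 49.6 in DCKO 2 but between 6.52 and 10.5 in the other libraries.

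Among the ligands, Hbegf (ENSMUSG00000024486, chromosome 18, 36504927 to 36515805, minus strand) encodes heparin-binding EGF-like growth factor. Its levels were 2.63 and 2.095 CPM in the Control libraries, 6.35 CPM in DCKO 1 and 49.3 CPM in DCKO 2. Both DCKO libraries exceeded both Control libraries, but DCKO 2 was 7.76 times DCKO 1. Of 18761 tested genes with counts in both DCKO libraries, 0.480% reached or exceeded this ratio. The log2 fold change was 3.55 with an SE of 0.95, and the adjusted p was 0.0571 in edgeR. Without DCKO 2 it was 1.42 (adjusted p 0.0264) and without DCKO 1 it was 4.37 (adjusted p 0.000512), so the size of the difference rests on which DCKO library is used. In those fits the spread comes from the Control pair alone. DESeq2 gave 3.55 with an adjusted p of 0.0206.

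Nrg1 (ENSMUSG00000062991, chromosome 8, 31814551 to 32884029, minus strand) encodes neuregulin 1, the ligand of ERBB3 and ERBB4. Its levels were 4.14 and 3.79 CPM in the Control libraries, 7.75 CPM in DCKO 1 and 18.8 CPM in DCKO 2. The groups did not overlap, and DCKO 2 was again the higher DCKO library, at 2.42 times DCKO 1. The difference of 1.74 on the log2 scale, with an SE of 0.45, had an adjusted p of 0.0538 in edgeR. It was 0.96 (adjusted p 0.0474) without DCKO 2 and 2.24 (adjusted p 0.00228) without DCKO 1. In the authors' deposited table it is 1.80, with a false discovery rate of 0.00113. Nrg1 is transcribed as many isoforms, which gene counts do not separate.

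Tgfa (ENSMUSG00000029999, chromosome 6, 86195223 to 86275719, plus strand) encodes TGF-alpha, a ligand of EGFR in epithelia. Its levels were 1.93 and 1.48 CPM in the Control libraries, 2.55 CPM in DCKO 1 and 4.17 CPM in DCKO 2. The lower DCKO library was close to the higher Control library. The log2 fold change of 0.97 (SE 0.41) did not pass in edgeR (adjusted p 0.157), nor with any single library left out, where the adjusted p was at least 0.0520.

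Amphiregulin, epiregulin and betacellulin were barely represented. Areg (ENSMUSG00000029378, chromosome 5, 91139599 to 91148432, plus strand), a ligand often used as a readout of YAP in epithelial cells, had 0 counts in 3 libraries and 5 counts in DCKO 2, or 0.135 CPM. Ereg (ENSMUSG00000029377, chromosome 5, 91074622 to 91093646, plus strand) and Btc (ENSMUSG00000082361, chromosome 5, 91357261 to 91402994, minus strand) had 0 counts in all 4 libraries. At these depths, a count of 0 allows up to 3 counts, or between 0.0479 and 0.0812 CPM by library, a limit that covers counting error alone. No fold was computed for these 3 genes. With Epgn, the gene of epigen, they form a ligand cluster of 376 kb on chromosome 5, and Epgn had between 0 and 4 counts per library.

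Of the other ligand genes, 0 passed the threshold in edgeR, 2 had an unadjusted p under 0.05 (Egf and Nrg2) and 1 passed in DESeq2. Egf, the founding ligand, was at 0.623 and 0.375 CPM in the Control libraries against 1.47 and 1.43 in the DCKO libraries (log2 fold change 1.53, adjusted p 0.0833 in edgeR). Nrg2 had 0.894 and 1.05 against 1.90 and 3.92 CPM, a difference of 1.58 on the log2 scale (adjusted p 0.0811 in edgeR and 0.0356 in DESeq2). Nrg3 and Nrg4 had overlapping groups, at 0.559 and 0.929 against 2.05 and 0.595 CPM for Nrg3 and 3.58 and 1.26 against 0.225 and 2.00 CPM for Nrg4. When DCKO 1 was left out Nrg2 passed (2.01, adjusted p 0.0146 in edgeR), and when DCKO 2 was left out Nrg4 was called lower (-3.42, adjusted p 0.0341). In TPM, Nrg1 at 2.67 and 2.52 and Hbegf at 2.08 and 1.35 were above Tgfa at 0.797 and 0.499 in Control, while Nrg4 was at 3.44 and 0.948. Hbegf made up 19.9% and 20.7% of the summed ligand TPM in Control, 33.3% in DCKO 1 and 65.1% in DCKO 2.

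**Figure D3:**
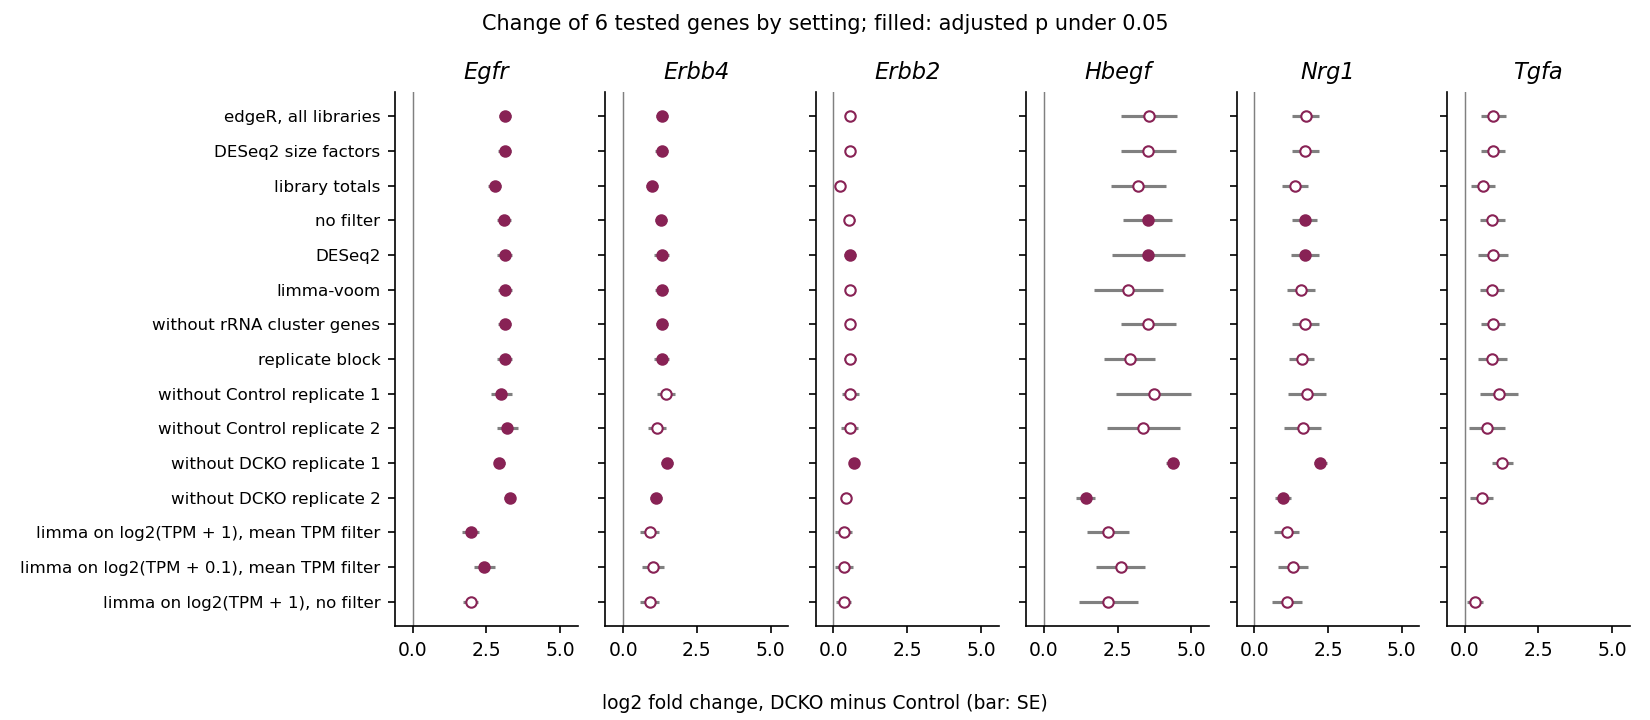
Log2 fold change, DCKO minus Control, of the 6 tested members under each setting, with bars for the SE and filled points for an adjusted p under 0.05. Egfr lies between 2.77 and 3.29 in the count fits, and Hbegf moves between 1.42 without DCKO 2 and 4.37 without DCKO 1.

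Genes that process the ligands were in part higher. Of 8 such genes, 4 were called higher and 0 lower, against 8.93% and 8.11% of all tested genes. The median log2 fold change of the 8 was 1.07. Rhbdf1 and Rhbdf2 encode iRhoms, which carry the sheddase ADAM17 to the cell surface, and both were called higher. Rhbdf1 rose from 6.76 and 5.95 CPM to 25.1 and 29.3 CPM, and Rhbdf2 from 4.82 and 2.69 CPM to 9.97 and 11.5 CPM. The metalloprotease genes Adam19 (from 23.7 and 18.5 to 42.2 and 49.8 CPM) and Adam12 (from 4.92 and 3.18 to 12.4 and 9.01 CPM) rose as well. The main sheddase genes did not pass, Adam17 having 0.40 (adjusted p 0.356 in edgeR) and Adam10 -0.45 (adjusted p 0.137). With library totals 2 of the 8 were higher and 1 lower, against 6.35% and 19.5% of all tested genes in that fit. With the replicate number as a block 1 was higher, as in limma on log2(TPM + 1) and on log2(TPM + 0.1) with the filter. Without Control 1 and Control 2 in turn 0 passed in edgeR, with 6 and 3 at an unadjusted p under 0.05 and medians of 1.24 and 0.88.

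Adaptors and kinases downstream of the receptors went both ways. Of 23 genes, 6 were higher and 4 lower, against 8.93% and 8.11% of all tested genes. The median of the 23 was -0.14 on the log2 scale. The docking and adaptor genes Gab1 (1.24, SE 0.17) and Shc1 (1.08, SE 0.17) rose, as did Stat3 (1.45, SE 0.18), a transcription factor activated by receptor kinases. Gab2, Mapk3 and Map2k1 were also called higher. Akt1, a survival kinase, fell by 1.05 (SE 0.17), and Map2k2, Pik3r1 and Pik3ca were lower too. With library totals 3 were higher and 9 lower, against 6.35% and 19.5% of all tested genes in that fit. With the replicate block 3 were higher and 1 lower, against 5.22% and 4.04%. In both filtered TPM fits 2 were higher and 2 lower. Without Control 1 and Control 2 in turn edgeR called 0, with 8 and 10 at an unadjusted p under 0.05.

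Of 17 genes for inhibitors and negative feedback, 2 were higher and 1 lower, against 8.93% and 8.11% of all tested genes. The median of the 17 was -0.28. Errfi1, whose protein MIG6 binds and inhibits ErbB kinases, rose from 24.4 and 20.5 CPM to 48.0 and 65.0 CPM (log2 fold change 1.33, adjusted p 0.0193 in edgeR). Lrig3 rose from 26.7 and 19.6 to 79.1 and 122.9 CPM (2.13, adjusted p 0.0139 in edgeR). Lrig1, which encodes a negative regulator of ErbB receptors, fell from 44.8 and 53.9 to 22.0 and 23.0 CPM (-1.13, adjusted p 0.0176 in edgeR). Whether the product of Lrig3 acts on these receptors as that of Lrig1 does cannot be read from RNA levels. The ERK phosphatase gene Dusp6 had 0.46 (adjusted p 0.355). With library totals 5 of the 17 were lower, against 19.5% of all tested genes in that fit. The median of the 17 was -0.46 without DCKO 2. Without Control 1 and Control 2 in turn edgeR called 0, with 3 and 5 at an unadjusted p under 0.05.

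Of 10 genes that EGF induces early in cultured cells, 3 were higher and 1 lower, against 8.93% and 8.11% of all tested genes. The median of the 10 was 0.97. Fos, an AP-1 subunit, went from 0.192 and 0.178 CPM in Control to 8.02 and 16.3 in DCKO, Ier3 from 1.01 and 1.42 to 22.7 and 52.0, and the transcription factor Egr1 from 2.38 and 1.64 to 11.7 and 26.4. Mcl1, a survival gene, fell by 1.06 on the log2 scale. These genes respond to many stimuli besides EGF. Without Control 1 or Control 2, 2 were higher and 0 lower in edgeR, with 6 and 4 at an unadjusted p under 0.05, and 5 were higher without DCKO 1 and in DESeq2.

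**Figure D4:**
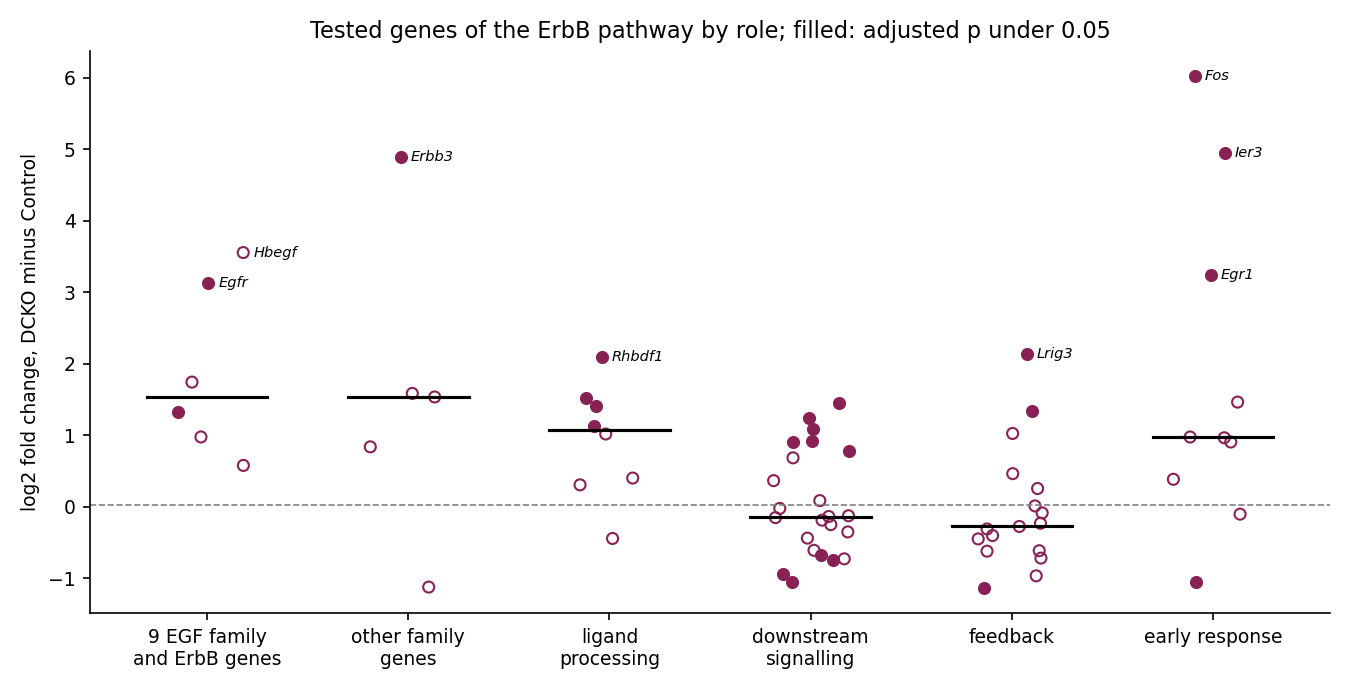
Log2 fold change, DCKO minus Control, of each tested gene in 6 lists of the ErbB pathway, filled where the adjusted p is under 0.05, with list medians as black bars and the median of all genes dashed. Downstream signalling and feedback genes lie on both sides of 0, with medians of -0.14 and -0.28, and Fos, Ier3 and Egr1 stand highest among the early response genes.

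Markers of several cell types moved with these genes, and in bulk tissue more cells of a type and more RNA per cell cannot be told apart. The counts below from edgeR on all libraries stand against 8.93% of all tested genes called higher and 8.11% called lower. DESeq2 called 13.5% lower, and limma with the filter 11.5% lower on log2(TPM + 1) and 10.8% on log2(TPM + 0.1). Fits without a Control library called far fewer of all genes, and those without a DCKO library more. Counts from these fits do not stand against the shares above. Of 12 surface ectoderm markers, an epithelium in which Egfr is known, 10 were tested and 9 were higher. Their summed level was 15.9 and 18.6 CPM in Control and 302 CPM in both DCKO libraries. Krt5 and Krt14, keratins of stratified epithelia, had 0 counts in both Control libraries and in 1 DCKO library each, with 36 counts of Krt5 in DCKO 1 and 13 of Krt14 in DCKO 2. Of 10 endothelial, 10 cranial mesenchyme and 9 mural markers, 7, 9 and 6 were higher, and 1 mural marker, Notch3, was lower (-0.64, adjusted p 0.0481 in edgeR). Notch3 accounted for 176 and 171 CPM of the mural sums in Control and 104 and 119 in DCKO. Summed levels of these lists ranged from 177 to 189, 316 to 365 and 223 to 234 CPM in Control and from 515 to 890, 1076 to 2211 and 603 to 804 CPM in DCKO. Of 8 neural progenitor markers, 7 were lower, their sums going from 2285 and 2568 CPM to 840 and 696. Of 10 neuronal markers 3 were lower, their sums going from 1280 and 1595 CPM to 872 and 340. Without Control 1 and Control 2 in turn, 7 and 5 surface ectoderm, 1 and 0 endothelial, 0 and 1 mesenchyme and 3 and 1 mural markers were higher and 3 and 3 progenitor markers lower in edgeR, with 9 and 8 endothelial and 10 and 9 mesenchyme markers at an unadjusted p under 0.05. Neuronal markers then had 0 called, with 6 and 4 at an unadjusted p under 0.05, while 9 were lower without DCKO 1, 6 in DESeq2 and 8 in both filtered TPM fits. The part of these shifts in the rise of Egfr and Erbb4 was not tested.

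The 2 DCKO libraries differed in the neural crest and glial precursor markers Sox10 and Foxd3, as they did in Erbb3, Hbegf and Nrg1. Sox10, a factor of neural crest and its glia, was at 1.49 and 2.21 CPM in the Control libraries, 1.37 in DCKO 1 and 24.1 in DCKO 2. Foxd3 had 0.725 CPM in DCKO 1 and 12.3 in DCKO 2. Of the 6 markers of this list, all tested, 1 was higher and 1 lower (4 higher when DCKO 1 was left out, and 0 called when either Control library was, with 2 and 3 at an unadjusted p under 0.05 in edgeR), and sums were 89.9 and 80.2 CPM for Control against 137 and 163 for DCKO. The part of these cells in the levels of Erbb3, Hbegf and Nrg1 was not tested. Of 8 erythroid markers 4 were lower, their sums going from 163 and 257 CPM to 66.5 and 35.0, with 7 lower when DCKO 1 was left out or on log2(TPM + 1) with the filter, 2 when Control 1 was and 0 when Control 2 was (4 at an unadjusted p under 0.05 in edgeR). Of 8 macrophage markers 0 passed in edgeR, 0 in DESeq2 and 0 at an unadjusted p under 0.05 in edgeR, with sums of 28.1 and 36.3 against 77.1 and 25.1 CPM, and 3 were higher when DCKO 2 was left out.

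**Figure D5:**
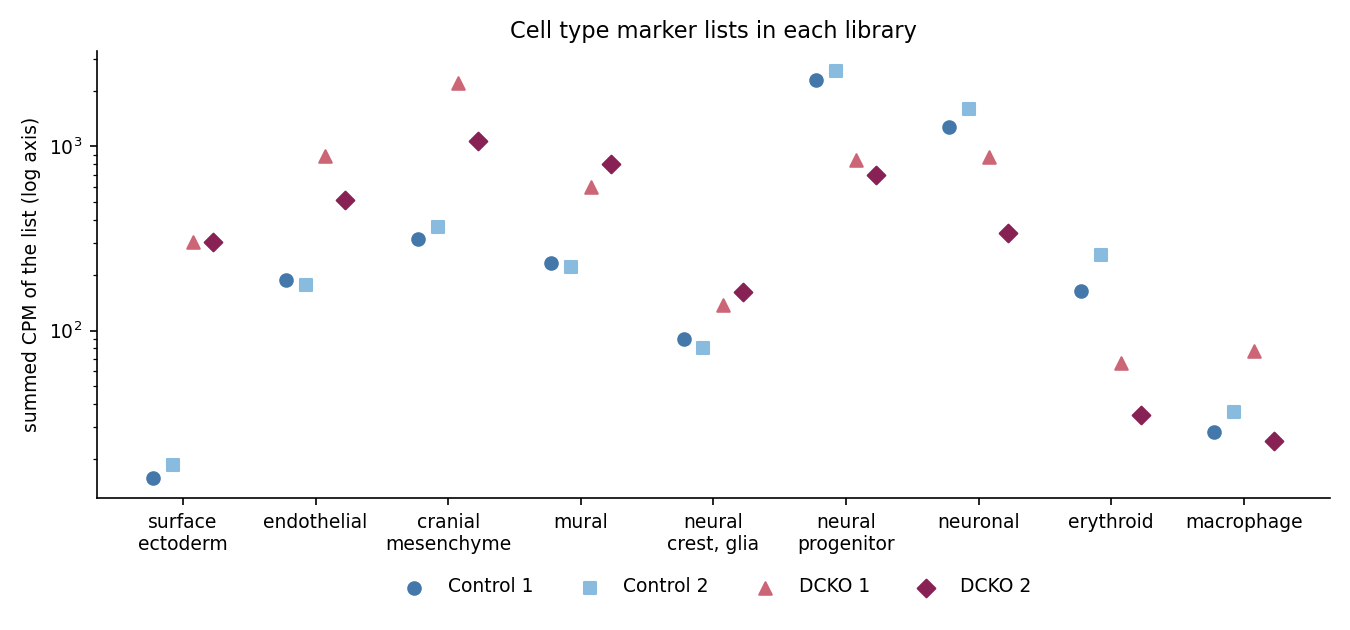
Summed CPM (log axis) of 9 lists of cell type markers in each library, 1 symbol per library. Surface ectoderm sums are 302 in both DCKO libraries against 15.9 and 18.6 in Control, and neural progenitor sums are lower in both DCKO libraries.

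The genes closest in pattern to the called members were sought by Euclidean distance between log2 CPM centred on each gene's mean over the 4 libraries, among 13188 genes whose mean log2 CPM was 1 or more. For Egfr they were Zfp185 (0.13), Anxa2 (0.19) and Pmaip1 (0.20). For Erbb4 they were Errfi1 (0.04), Stard8 (0.06) and Lrrk1 (0.06). With 4 libraries in 2 groups, such closeness mostly reflects the size of the group difference, and it is given as a description.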

How the data were processed

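The data are RNA sequencing libraries of 4 embryos. The authors deposited whole-number counts per Ensembl gene without scaling, TPM per gene, and a table with a log2 fold change, p-value and false discovery rate, whose sign and log base were checked against the counts. Builds mm10 and GRCm38 and the tools TopHat2 2.1.1, StringTie, limma 3.30.13, edgeR 3.16.5 and R 3.3.2 are named, with no roles, in the submitters' processing notes. The counting tool and its strand setting are not given in the sources used here, so overlapping genes are uncertain. Symbols and coordinates are from GENCODE M21 (54409 of 54532 IDs matched).

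Counts were tested with edgeR 4.0.16 in R 4.3.3 (glmQLFit, glmQLFTest). Low genes were removed with filterByExpr (min.count of 10, min.total.count of 15), libraries scaled by TMM, and group was the only term, with 2 residual degrees of freedom. P-values are two-sided and adjusted by Benjamini-Hochberg over 19207 genes. The SE of a log2 fold change is its size over the root of F. Alternatives used DESeq2 1.42.0, limma 3.58.1, other scalings and filters, log2(TPM + 1) and log2(TPM + 0.1). Protein sequences were not used here. The members and gene lists were chosen with earlier results of these data known. The genes named are the family, the targeted genes, Yap1 and Wwtr1, up to 4 called genes of each list by p-value, and the nearest neighbours in pattern or position. The last of these and other list genes given by value, such as Adam10, Adam17, Dusp6, Sox10, Foxd3, Krt5 and Krt14, were in part chosen after their values were seen, as were the SP1 and TATA letters. Lists of cell type markers are described by counts and sums, with no test of a list, and 1 gene of these lists is not reported here.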

Additional observations from a re-analysis of the deposited data

How the results depend on the processing

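Over the 6 tested members and 14 alternatives, 82 values could be computed, of which 66 kept their side of the threshold, 10 passed it where the edgeR fit on all libraries had not and 6 lost it, with 0 reversed in sign. The number of members called higher was 2 over all libraries, 5 with DESeq2, 4 with no filter on low counts, 1 in limma on log2(TPM + 1) or log2(TPM + 0.1) for genes with a mean TPM of at least 1, 0 in limma on unfiltered log2(TPM + 1), and between 1 and 5 without a single library. The number of all genes called was 3274, with 5196 by DESeq2, 4963 with library totals, 0 in limma on unfiltered log2(TPM + 1), where 6446 had an unadjusted p under 0.05, and between 227 (without Control 2) and 5184 (without DCKO 2). Fits without a Control library take the spread from the DCKO pair and fits without a DCKO library from the Control pair. 0 members were called lower by any of the 14 alternatives, and Egfr was called in each of them except limma on unfiltered log2(TPM + 1) (adjusted p 0.0894). With library totals the split of all calls was 1219 higher and 3744 lower. Signs reversed for Nrg3 without DCKO 1 (-0.32, against 0.83 over all libraries and up to 1.46 without DCKO 2), for Yap1 without DCKO 1 (0.020, down to -0.58 without DCKO 2) and for Wwtr1 with library totals (-0.10). The cause of these changes was not tested.

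The labels number the embryos 1 and 2 in each group, but nothing says that equal numbers share a litter or day, and the deviations of Control 1 and DCKO 1 from their group means had a correlation of -0.04 across 19207 genes, which are not independent replicates. With the replicate number as a block, 1778 genes and the same number of members, 2, were called. Areg, Ereg and Btc, with 0 to 5 counts per library, were below the depth needed for a test.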

Other observations

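The ligand cluster on chromosome 5, at 0 to 5 counts per gene and library, lies between the expressed genes Mthfd2l and Parm1. On its left, Mthfd2l, a mitochondrial folate enzyme gene next to Epgn, was at 19.3 and 19.9 CPM in Control against 24.9 and 24.0 in DCKO. Its log2 fold change of 0.32 (SE 0.17) did not pass. The chemokine gene Cxcl2 beyond it had 3 counts in DCKO 1 and 0 in the other libraries. On its right, Parm1, which encodes a mucin-like membrane protein and is the neighbour of Btc, rose from 1348 and 1043 counts to 4643 and 3024, a difference of 2.23 on the log2 scale with an SE of 0.22 (adjusted p 0.00806 in edgeR). Rchy1, a ubiquitin ligase gene farther to the right, had 0.52 (SE 0.17) and did not pass. Nrg4 fell by 3.42 on the log2 scale without DCKO 2 (adjusted p 0.0341 in edgeR), while its difference over all 4 libraries was -1.13 with overlapping groups.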
